A study of Homo sapiens with 14 samples.

Results

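The NRF2 antioxidant response genes are a regulator and 8 genes whose transcription it is known to raise. The members were NFE2L2, GCLC, GCLM, SLC7A11, TXNRD1, SRXN1, NQO1, HMOX1 and ME1, chosen by gene symbol from the table of RPKM values (reads per kilobase of gene and per 1000000 reads). All 9 had a row among the 21574 rows of that table. The data come from 14 libraries of cells labelled HepG2, a line that came from a liver tumour, which were by the labels stably transfected with a scrambled siRNA (control) or with siADAR1, an siRNA against the RNA-editing enzyme ADAR (KD). PARS-seq, which maps the cuts of a nuclease along RNA, was done in vitro on poly-A RNA with S1 nuclease, which cuts unpaired bases, or RNase V1, which cuts paired bases, in 2 replicates per nuclease and condition, 8 libraries in all. RNA-seq had 1 library per condition, and Ribo-seq, which sequences the fragments that ribosomes protect, had 2. The study used the KD to look for changes of RNA structure. The study calls its replicates biological. The labels do not say whether they came from separate cultures, and p-values measure only the spread between these samples.

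NRF2, the protein of NFE2L2, is a transcription factor that the adaptor KEAP1 marks for degradation in resting cells. Under oxidants or electrophiles it escapes, pairs with a small MAF protein and binds antioxidant response elements near its target genes, which make glutathione, reduce thioredoxin, detoxify quinones, degrade heme and supply NADPH. In liver the pathway is known for protection against drugs and oxidants, and many tumours keep it active.

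The labelled cell type did not match the markers. All 8 hepatocyte markers, ALB, AFP, APOA1, APOB, SERPINA1, TF, TTR and FGB, were at or near 0 in the columns of the table, with a highest value of 0.0821 RPKM for APOA1 in the RNA-seq control. Their summed level was at most 0.126 RPKM in any column, and it was 0 in all 4 Ribo-seq columns. Of 5 markers of other cells, the collagen genes COL1A1 and COL3A1 were present, at 9.75 to 54.7 and 6.14 to 96.2 RPKM, while PTPRC, CD3E and PECAM1 did not pass 0.275 RPKM. COL3A1 had the highest level of these markers in PARS-seq, with 96.2 and 71.8 RPKM in control and 70.2 and 48.2 RPKM in KD. The 5 markers of other cells summed to 116 and 101 RPKM in PARS-seq control and to 86.7 and 67.6 RPKM in PARS-seq KD. These sums, made up almost wholly of the collagen genes, did not overlap between the conditions. Of all genes tested in PARS-seq, 27.1% had both KD values below both control values. Neither collagen gene passed the PARS-seq test. In RNA-seq the sum was 68.6 RPKM in control and 46.7 RPKM in KD, with COL3A1 at 13.8 and 6.14 RPKM. In Ribo-seq the sum was 30.05 RPKM in control and 23.0 RPKM in KD in replicate 1, and 45.8 and 46.9 RPKM in replicate 2. Whether other cells were present was not tested, nor was any part of them in the differences of the members. The samples are therefore named by condition and assay only, and the label HepG2 is not taken as a description of what the libraries hold.

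ADAR, the target of the siRNA, was lower in KD in every replicate. Each PARS-seq value is an average that the authors took of the 2 nuclease libraries with the same replicate number. In PARS-seq ADAR had 40.7 and 46.8 RPKM in control and 15.1 and 15.1 RPKM in KD. Its PARS-seq log2 difference was -1.47 ± 0.17 (SE), with an adjusted p of 0.002 by limma over all genes tested. The RNA-seq level was 54.8 RPKM in control and 15.4 RPKM in KD. In Ribo-seq it was 43.6 and 8.73 RPKM in replicate 1, but 55.5 and 44.03 RPKM in replicate 2. ADAR was thus 80.0% lower in replicate 1 of Ribo-seq and 20.6% lower in replicate 2. The limma test over both did not pass (log2 difference -1.26, adjusted p = 1). It passed with libraries of the same number paired, which the labels do not call pairs. Replicate 2 of Ribo-seq stood apart from the other 4 same-numbered comparisons in the size of the ADAR difference. The values of the members are therefore given for each replicate apart, a choice made after seeing the data.

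Depth could be set between libraries only in part. The RPKM table holds no read numbers; the study lists them for its PARS-seq libraries but not for RNA-seq or Ribo-seq. Among genes under 1 RPKM, the most common ratio between 2 libraries was taken as that of a single read in each, which put the depth of RNA-seq KD at 0.742 times that of its control. By the same measure Ribo-seq KD had 1.41 times the depth of its control in replicate 1 and 0.724 times in replicate 2. How many reads lie behind low values, such as those of SLC7A11 in RNA-seq, could not be read from these files.

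NFE2L2, the regulator itself, lies on chromosome 2 (GRCh37, chr2:178083395-178257484, minus strand). Its row of the table was joined with the microRNA gene MIR3128, which lies inside it and overlaps none of its annotated exons, so the values are those of the joined row and uncertain to that extent. In PARS-seq the row had 47.3 and 42.7 RPKM in control and 38.7 and 32.6 RPKM in KD. Both KD values lay below both control values, yet the log2 difference of -0.33 ± 0.18 (SE) did not pass the test. That test was limma on log2(RPKM + 1) with Benjamini-Hochberg adjustment over all 11153 genes with a mean of at least 1 RPKM, and it gave an adjusted p of 0.234. With libraries of the same number paired, NFE2L2 was called lower, as were 2527 genes in all. RNA-seq had 29.7 RPKM in control and 28.4 RPKM in KD. This was the member with the smallest RNA-seq difference, -0.06 on the log2 scale. Ribo-seq replicate 1 had 94.1 RPKM in control and 83.6 RPKM in KD. Ribo-seq replicate 2 had 32.7 RPKM in control and 45.8 RPKM in KD. The 2 Ribo-seq replicates thus differed in direction, and their control values differed by more than either did from its KD value.

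Among the genes of glutathione synthesis, GCLM had the largest PARS-seq difference of the 9 members with all columns in the fit. GCLM encodes the modifier subunit of glutamate-cysteine ligase, the enzyme of the first step (chr1:94350755-94375012, minus strand). Its PARS-seq level was 40.7 and 41.1 RPKM in control and 10.7 and 11.1 RPKM in KD. The replicates nearly coincided within each condition, and KD was at 26.2% and 27.1% of control. The log2 difference was -1.81 ± 0.157 (SE), with a limma adjusted p of 5.94e-04. Without control replicate 1 it was -1.82, and SRXN1 ranked ahead with -1.96. Without KD replicate 2 it was -1.84, and SRXN1 ranked ahead with -2.01. RNA-seq gave 7.52 RPKM in control and 4.60 RPKM in KD. Ribo-seq gave 30.4 RPKM in control and 13.9 RPKM in KD in replicate 1, and 14.2 and 13.3 RPKM in replicate 2. GCLM was the only member whose 2 Ribo-seq KD values both lay below both control values, as in 7.12% of all genes. In replicate 2 the gap was small.

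GCLC encodes the catalytic subunit of the same ligase (chr6:53362139-53481768, minus strand). It had 68.0 and 79.6 RPKM in control and 36.6 and 36.8 RPKM in KD in PARS-seq. KD was thus about 1.98-fold lower, with a log2 difference of -0.98 ± 0.173 (SE) and a limma adjusted p of 0.00962. RNA-seq had 11.4 RPKM in control and 8.01 RPKM in KD, which is 70.4% of control. Ribo-seq gave 72.0% of control in replicate 1 and 86.8% in replicate 2. The gene encoding the catalytic subunit therefore had a smaller PARS-seq difference than the gene of the modifier subunit, though the difference between the 2 genes was not tested.

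SLC7A11 encodes the cystine importer that supplies cysteine for glutathione (chr4:139085251-139163503, minus strand). In PARS-seq it had 65.1 and 101 RPKM in control and 47.7 and 65.7 RPKM in KD. The conditions overlapped, since KD replicate 2 lay just above control replicate 1, and the log2 difference of -0.53 ± 0.253 (SE) did not pass the test (limma adjusted p = 0.192). It passed without PARS-seq control replicate 1, where the log2 difference was -0.84. The difference was -0.21 without control replicate 2, -0.30 without KD replicate 1 and -0.75 without KD replicate 2. With libraries of the same number paired, SLC7A11 was called lower, as were 2527 genes in all. RNA-seq had only 2.00 RPKM in control and 0.764 RPKM in KD. Ribo-seq had 12.8 RPKM in control and 5.09 RPKM in KD in replicate 1, against 6.39 and 7.06 RPKM in replicate 2. The PARS-seq control level of this gene was 41.6 times its RNA-seq level, while the other 8 members had ratios between 1.52 and 6.49. The assays were normalized apart, so these ratios compare members with each other and are no measure of abundance.

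The 2 members of the thioredoxin branch had unlike PARS-seq differences, and the difference between them was not tested. TXNRD1 encodes the cytosolic thioredoxin reductase (chr12:104609557-104744085, plus strand), and its row was joined with EID3, a gene inside it on the same strand that overlaps none of its annotated exons. The joined row had 290 and 262 RPKM in control and 284 and 263 RPKM in KD in PARS-seq. The log2 difference was -0.01 ± 0.184 (SE), with a limma adjusted p of 0.963, and it was 0.06 without control replicate 1 and 0.04 without KD replicate 2. RNA-seq had 95.3 RPKM in control and 73.5 RPKM in KD. Ribo-seq KD was at 102% of control in replicate 1 and at 97.5% in replicate 2. TXNRD1 thus had the smallest PARS-seq difference of the 9 members, while its RNA-seq value was lower in KD.

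SRXN1 encodes sulfiredoxin, which repairs overoxidized peroxiredoxins (chr20:627259-633844, minus strand). Its PARS-seq level was 168 and 240 RPKM in control and 49.0 and 75.7 RPKM in KD. Both KD values lay below both control values, and the log2 difference was -1.70 ± 0.261 (SE), with a limma adjusted p of 0.0057. RNA-seq had 71.8 RPKM in control and 33.5 RPKM in KD. Ribo-seq had 23.5 and 12.5 RPKM in replicate 1, and 42.9 and 31.6 RPKM in replicate 2. SRXN1 had the lowest ratio of KD to control of the 9 members in Ribo-seq replicate 2, 73.6%.

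NQO1 and HMOX1 act on quinones and heme. NQO1 encodes the quinone reductase often used to read out the pathway (chr16:69740899-69760571, minus strand). It had 422 and 290 RPKM in control and 132 and 126 RPKM in KD in PARS-seq. Control replicates differed more than KD replicates, and the log2 difference was -1.43 ± 0.222 (SE), with a limma adjusted p of 0.00615. RNA-seq had 149 RPKM in control and 65.5 RPKM in KD, 43.8% of control. Ribo-seq had 308 and 177 RPKM in replicate 1. Ribo-seq had 136 and 162 RPKM in replicate 2. The KD values of the 2 Ribo-seq replicates were close to each other, and the control values were not.

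HMOX1 encodes heme oxygenase, which opens the heme ring (chr22:35776354-35790207, plus strand). It had 35.1 and 51.2 RPKM in control and 15.8 and 22.8 RPKM in KD in PARS-seq. KD was at 44.98% and 44.6% of control in the same-numbered replicates, and the log2 difference was -1.12 ± 0.241 (SE), with a limma adjusted p of 0.0207. RNA-seq had 19.0 RPKM in control and 16.3 RPKM in KD. Ribo-seq had 17.7 and 17.5 RPKM in replicate 1, and 14.8 and 24.1 RPKM in replicate 2. HMOX1 was the one member at least 1.5-fold higher in KD in a Ribo-seq replicate. This was replicate 2, where 19.9% of all genes were higher by that size.

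ME1 encodes the cytosolic malic enzyme, a source of NADPH (chr6:83920121-84140770, minus strand). It had 48.6 and 42.2 RPKM in control and 18.1 and 16.5 RPKM in KD in PARS-seq. The log2 difference was -1.34 ± 0.169 (SE), with a limma adjusted p of 0.00301. RNA-seq had 7.99 RPKM in control and 6.04 RPKM in KD. Ribo-seq had 43.7 and 26.7 RPKM in replicate 1, and 21.05 and 27.5 RPKM in replicate 2. ME1 thus was 2.53-fold lower in PARS-seq, and its 2 Ribo-seq replicates differed in direction.

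**Figure D1:**
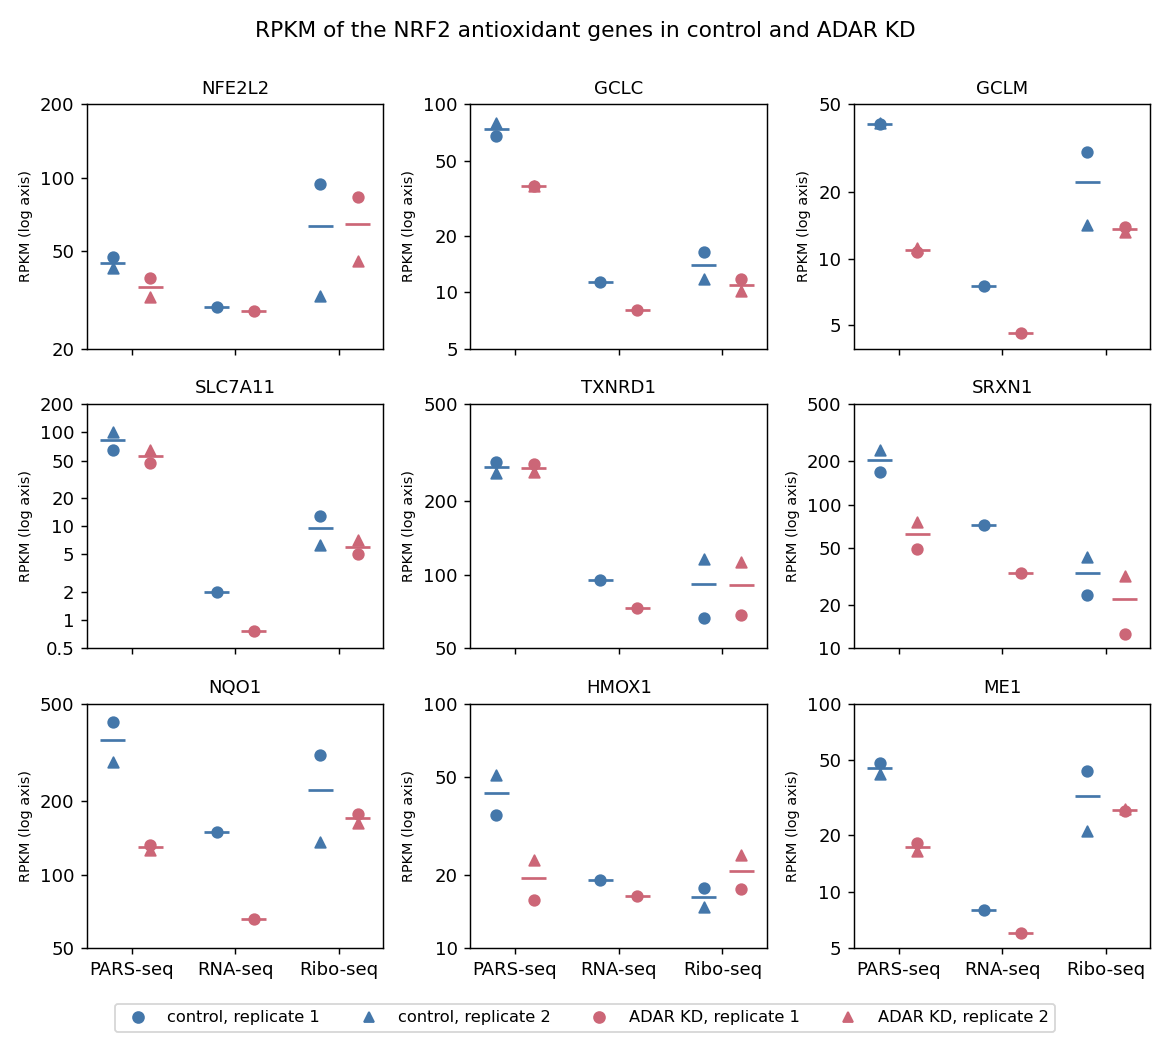
RPKM on log axes of each member in PARS-seq, RNA-seq and Ribo-seq, with blue for control, red for ADAR KD, circles for replicate 1, triangles for replicate 2 and bars for the mean. PARS-seq values of GCLM lie at 40.7 and 41.1 RPKM in control and at 10.7 and 11.1 RPKM in KD, while those of TXNRD1 overlap.

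In PARS-seq, 6 of the 9 members were called lower (NQO1, GCLC, GCLM, SRXN1, HMOX1 and ME1) and 0 were called higher. Of all 11153 genes tested, 7.43% were called lower and 8.06% higher, at an adjusted p under 0.05. The members were chosen with earlier results of these data known, so such counts, here and below, are no independent test. All 9 members passed the filter on low values. Their median log2 difference was -1.12, and that of all genes tested was 0.04. In 7 of the 9 members both KD values lay below both control values, and 27.1% of all genes tested did so. In replicate 1, 6 of the 9 were at least 1.5-fold lower, against 10% of all genes, and 0 were higher by that size, against 10.3%. In replicate 2, SLC7A11 made it 7 of 9, against 7.73%, and 0 were higher, against 8.11%. By any amount, 9 of 9 members were lower in replicate 1, against 46.7% of all genes, and 8 of 9 in replicate 2, against 45.1%, with TXNRD1 the exception. Bulk samples cannot tell fewer cells with a transcript from less of it per cell. The 6 calls held in each of the 4 fits that left out 1 column, and SLC7A11 was called as well without control replicate 1 (log2 difference -0.84). SLC7A11 had -0.21 without control replicate 2, -0.30 without KD replicate 1 and -0.75 without KD replicate 2. Without the filter on low values, 3 of the 9 were called lower (GCLC, GCLM and ME1), against 1.71% of 19048 genes. NQO1, SRXN1 and HMOX1 did not pass then, at the same log2 differences. The number of genes called lower, 829, was 1252 without control replicate 2, and the number called higher, 899, was 584 without KD replicate 2.

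**Figure D2:**
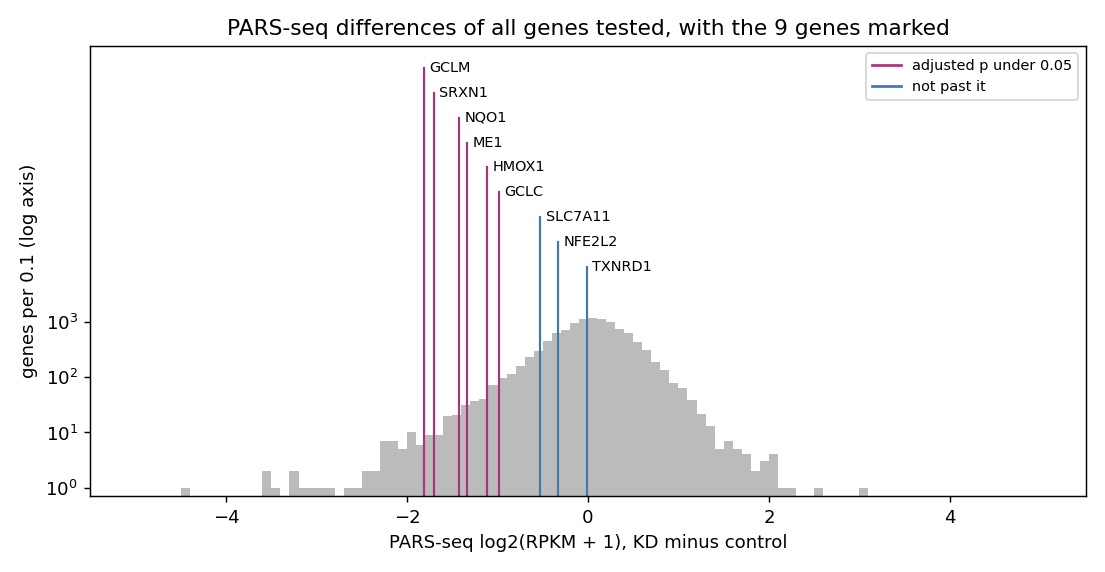
Number of genes (log axis) per 0.1 of the PARS-seq difference in log2(RPKM + 1), KD minus control, over the 11153 genes tested, with a line for each member. Lines in purple mark the 6 members with an adjusted p under 0.05, from GCLM at -1.81 to GCLC at -0.98, and blue lines the other 3.

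In RNA-seq all 9 members were lower in KD, and 52% of the 10946 genes tested were lower. With 1 library per condition the difference has no replicate check, and 1.5-fold was taken as the size called. By it NQO1, GCLM, SRXN1 and SLC7A11 were lower, 4 of 9 against 4.66% of all genes, and 0 members were higher, against 4.47%. The largest difference was that of NQO1, -1.18 on the log2 scale, and SRXN1 followed with -1.08. The median of the members was -0.46, and that of all genes was -0.01. The 2 collagen genes among the markers of other cells had a median of -0.74 here, whose part in the members' differences was not tested. These sizes are on RPKM + 1, which shrinks the ratio of low genes. At 2-fold on that scale, NQO1 and SRXN1 were the 2 members past the size, 2 of 9 against 0.914% of all genes. SLC7A11 had an RPKM ratio of 0.383 and a log2 difference of -0.76, or -1.28 with 0.1 added in place of 1. With 0.1 added it ranked ahead of NQO1, which then had -1.19, so the order given above holds on RPKM + 1.

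In Ribo-seq, limma called 0 of the 10882 genes tested in either direction, so 0 members were called, against a background of 0%. At an unadjusted p under 0.05, 14 genes were lower and 29 higher, and 0 of them were members. With libraries of the same number paired, limma called 58 genes lower and 85 higher, and 0 members. In replicate 1, NQO1, GCLM, SRXN1, SLC7A11 and ME1 were at least 1.5-fold lower, 5 of 9 against 11% of all genes, and 0 of 9 were higher by that size, against 9.7%. In replicate 2, 0 of 9 were lower by that size, against 8.19% of all genes, and HMOX1 alone of the members was higher, against 19.9%. By any amount, 8 of 9 members were lower in replicate 1, against 51.4% of all genes, and 4 of 9 in replicate 2, against 38%. GCLM was the 1 member of 9 with both KD values below both control values, against 7.12% of all genes. The median log2 difference of the members was -0.69 in replicate 1 and 0.13 in replicate 2, where the median of all genes was -0.02 and 0.16. Relative to these medians, the differences in replicate 2 ran from -0.59 for SRXN1 to 0.51 for HMOX1. The 2 collagen genes had medians of -0.34 and -0.14 in these replicates. ADAR was 20.6% lower in replicate 2 against 80.0% in replicate 1, and the part of either in the difference between the replicates was not tested. A joint fit of both assays, chosen after seeing the data, tested whether the KD effect differed between Ribo-seq and PARS-seq. Limma called 0 of 10339 genes in it, and 163 (1.58%) had an unadjusted p under 0.05, with GCLM (log2 1.23) and HMOX1 (1.44) among them, 2 of 9 members. The median of the members in this fit was 1.06, beside 0.06 for all genes, and 7 of 9 members lay between 0.48 and 1.44. No member passed the test, which does not show that the KD effects were alike in the assays.

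**Figure D3:**
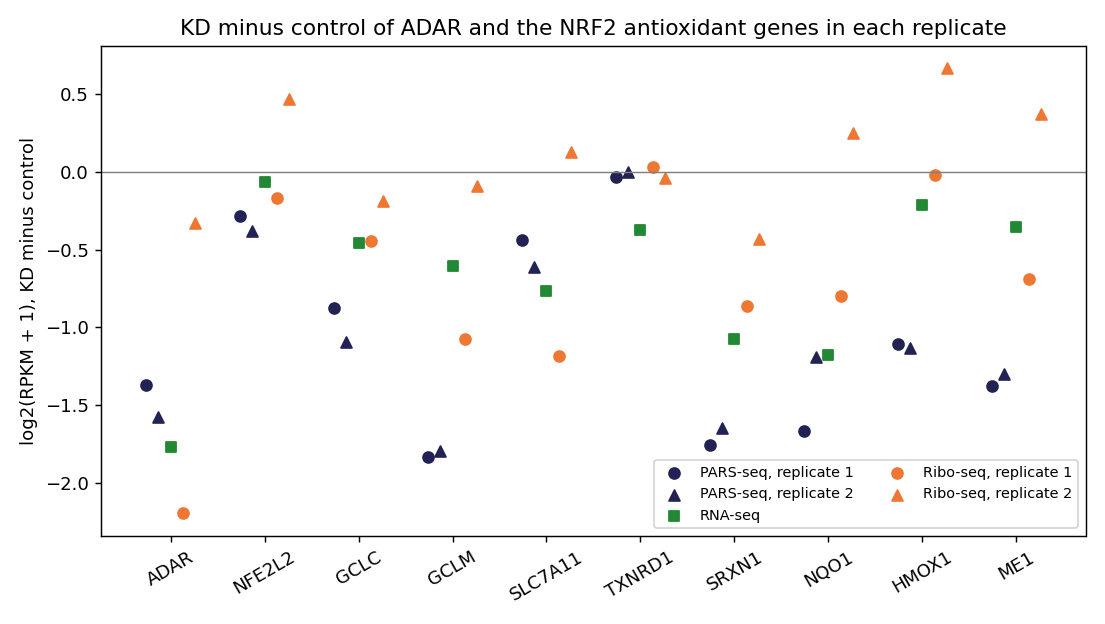
Difference of log2(RPKM + 1), KD minus control, for ADAR and each member in the 5 same-numbered comparisons, with 1 point per replicate. Points of PARS-seq (dark blue) and RNA-seq (green) lie below 0 or, for TXNRD1 in PARS-seq replicate 2, at 0.00, and those of Ribo-seq replicate 2 (orange triangles) reach 0.67 for HMOX1.

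The ratio of the Ribo-seq fold change to the RNA-seq fold change was computed for each Ribo-seq replicate as a measure of the change in translation efficiency, which is Ribo-seq over RNA-seq. Both replicates share the single pair of RNA-seq libraries, and no test was run. In replicate 1 the members ran from -0.47 for GCLM to 0.40 for TXNRD1 on the log2 scale, with a median of 0.02 beside 0.01 for all 10142 genes. In replicate 2 they ran from 0.27 for GCLC to 1.43 for NQO1, with a median of 0.65 beside 0.18. The value of GCLM was -0.47 in replicate 1 and 0.51 in replicate 2. No direction was thus shared by all members in both replicates.

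By mean control level per gene length, NQO1 came first of the 9 members and TXNRD1 next in each of the 3 assays. In Ribo-seq TXNRD1 overlapped NFE2L2, which was the higher of the 2 in control replicate 1, at 94.1 against 66.8 RPKM. In PARS-seq, NQO1 had a control mean of 356 ± 93.6 RPKM (SD, n = 2), TXNRD1 276 ± 19.3 RPKM and SRXN1 204 ± 50.4 RPKM. NQO1 and TXNRD1 overlapped in their replicates, and TXNRD1 and SRXN1 did not. SLC7A11 at 83.0 ± 25.4 RPKM overlapped GCLC at 73.8 ± 8.19 RPKM. ME1, NFE2L2, HMOX1 and GCLM followed between 45.4 and 40.9 RPKM, and each of these overlapped its neighbour. The highest level was 8.70 times the lowest in PARS-seq and 74.9 times in RNA-seq, where SLC7A11 came last.

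The tables of read starts, which count the first base of each read along UCSC transcripts, allowed the nucleases to be taken apart. A UCSC identifier was paired with the symbol for 5 members, GCLM (uc001dqg.1), SRXN1 (uc002wea.4), HMOX1 (uc003ant.2), SLC7A11 (uc021xrw.1) and ME1 (uc003pjy.3), and the other 4 were not analysed here. The libraries hold between 96618292 and 214584779 read starts. S1 control replicate 1 lists 4722 transcripts, while each of the other 7 lists 21052 to 22402. The S1 libraries were compared on the 4722 transcripts common to them. The S1 shares and the S1 median of all transcripts thus describe a set fixed by 1 control library. In S1 KD replicate 1 this set held 128149871 of 139104794 read starts. Counts were scaled to 1000000 read starts on the transcripts that all 4 libraries of a nuclease list, and these are called scaled read starts. Of the read starts compared, 1 transcript (uc022brd.2) took 26.0% in S1 control replicate 1 and up to 54.7% in V1 KD replicate 1. The median log2 difference of all transcripts tested was -0.36 for S1 and -0.14 for V1 when scaled by totals, and differences relative to these medians are given beside those as fitted.

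Unscaled S1 counts of GCLM were 9291 and 9026 in the control libraries, against 2245 and 1788 after KD. In V1 it had 7769 and 7396 in control and 2798 and 2114 in KD. Both nucleases thus gave lower counts in KD, with log2 differences of scaled read starts of -2.16 and -2.14, or -1.80 and -2.001 relative to the median. SRXN1 had 217 and 299 scaled read starts in S1 control and 51.4 and 85.2 in S1 KD. In V1, SRXN1 had 318 and 389 in control and 62.4 and 122 in KD. Its differences as fitted were -1.95 for S1 and -2.01 for V1, or -1.59 and -1.88 relative to the median. ME1 had 121 and 92.8 in S1 control and 32.6 and 31.8 in S1 KD. In V1, ME1 had 94.0 and 74.3 in control and 25.5 and 29.8 in KD. The differences of ME1 as fitted were -1.72 for S1 and -1.60 for V1, or -1.36 and -1.47 relative to the median.

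HMOX1 had 37.7 and 43.8 scaled read starts in S1 control and 12.02 and 16.8 in S1 KD. In V1, HMOX1 had 32.6 and 47.3 in control and 10.7 and 21.7 in KD. The differences as fitted were -1.52 for S1 and -1.37 for V1, or -1.16 and -1.23 relative to the median. The S1 call of HMOX1 was lost without S1 KD replicate 1, where the difference as fitted fell to -1.28. Its V1 call was lost without V1 KD replicate 1 (-0.86 as fitted) and without V1 control replicate 2 (-1.10 as fitted). SLC7A11 had 540 and 759 in S1 control and 320 and 481 in S1 KD. In V1, SLC7A11 had 465 and 633 in control and 220 and 382 in KD. KD values lay below control values with either nuclease, with differences as fitted of -0.71 for S1 and -0.91 for V1. But the differences relative to the median, -0.35 for S1 and -0.77 for V1, were the smallest of the 5.

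By limma, called at an adjusted p under 0.05, 5 of the 5 members were called lower in S1, where 18.6% of 4721 transcripts were, and 4 of 5 in V1, where 7.71% of 16982 were. In either nuclease 0 members were called higher, against 1.48% in S1 and 2.03% in V1. SLC7A11 was the one not called in V1 (log2 difference -0.91, adjusted p = 0.0862). Scaling moved the balance of all calls, from 70 higher and 878 lower to 306 higher and 438 lower with TMM in S1, and from 344 higher and 1309 lower to 679 higher and 988 lower in V1. TMM, which scales libraries by a trimmed mean of ratios, called 9.28% of transcripts lower and 6.48% higher in S1, and 5.82% lower and 4% higher in V1. With TMM, GCLM, SRXN1, HMOX1 and ME1 were called lower with both nucleases and 0 members higher. The S1 call of SLC7A11, at a log2 difference as fitted of -0.71, was lost with TMM (-0.35) and with totals that leave out uc022brd.2 (-0.35). It was also lost without S1 KD replicate 1 (-0.41), without S1 KD replicate 2 (-1.001) and without S1 control replicate 2 (-0.46). SLC7A11 was called in V1 without V1 KD replicate 2 (-1.30). Its V1 difference was -0.51 without V1 KD replicate 1, -1.13 without V1 control replicate 1 and -0.68 without V1 control replicate 2. The count of 878 was 250 without S1 KD replicate 1, 231 without S1 KD replicate 2, 427 without S1 control replicate 1 and 1722 without S1 control replicate 2. The count of 1309 was 786 without V1 KD replicate 1 and 429 without V1 control replicate 1. The 70 called higher in S1 were 23 without KD replicate 1, 8 without KD replicate 2 and 111 without control replicate 2. The 344 called higher in V1 were 120 without KD replicate 2 and 149 without control replicate 1. The members called in S1 were 3 of 5 without S1 KD replicate 1, namely GCLM, SRXN1 and ME1.

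**Figure D4:**
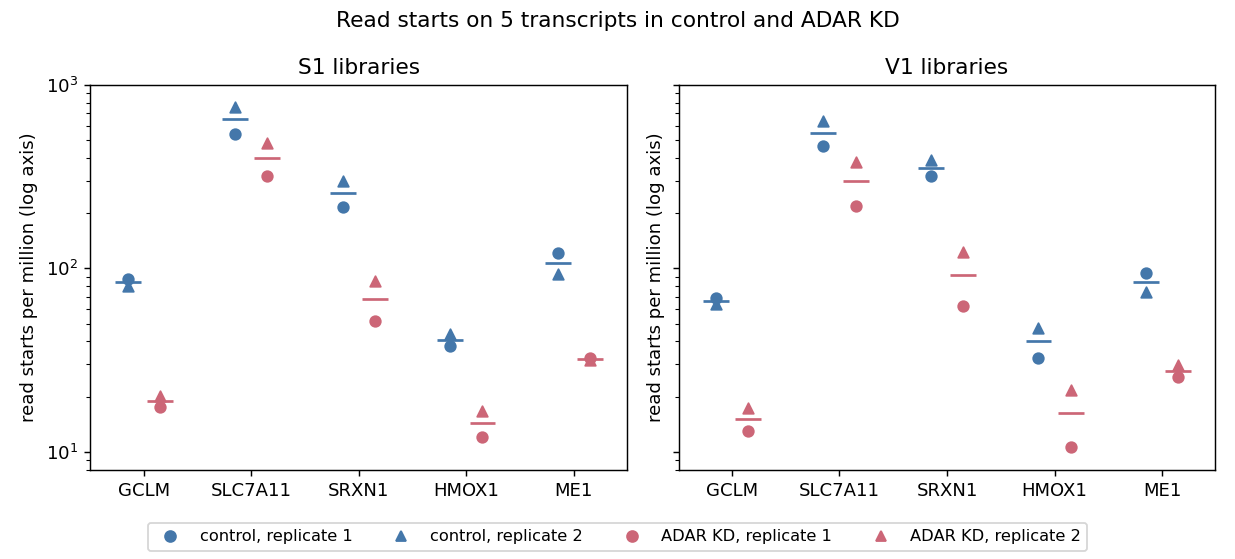
Scaled read starts (log axis) on the transcripts of 5 members in the S1 and V1 libraries, with blue for control, red for ADAR KD, circles for replicate 1, triangles for replicate 2 and bars for the mean. S1 values of GCLM lie at 88.0 and 79.9 in control and at 17.5 and 20.2 in KD.

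Each transcript was divided into 10 equal segments to see where along it the conditions differed. In GCLM, SRXN1 and ME1, both KD libraries lay below both control libraries in 10 of 10 segments with either nuclease. In HMOX1 and SLC7A11 this held in 9 of 10 segments with S1 and with V1, and the exception was the last one at the 3′ end. Over the transcripts tested, 47.4% of segments with a mean of at least 10 read starts lay that way with S1 and 30.5% with V1, while 47 of 49 and 48 of 50 such segments of the 5 members did. Of transcripts with 10 such segments, 9.32% had 10 of 10 that way with S1 and 5.52% with V1. SRXN1 is not among them with S1, where its segment at the 5′ end had as few as 1 read start. These counts are scaled by totals, so they hold the median differences of -0.36 and -0.14 named above. Segments of a transcript come from the same libraries and are not separate observations, so the segment counts describe 5 transcripts. The log2 ratio of KD to control ran from -2.64 to -1.42 over the segments of GCLM in S1. In ME1 it ran from -2.11 to -1.42 in S1 and from -1.77 to -1.38 in V1. The segment at the 3′ end of SLC7A11 held between 33.3% and 57.6% of its read starts, while the other 4 members had 1.12% to 23.7% there.

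**Figure D5:**
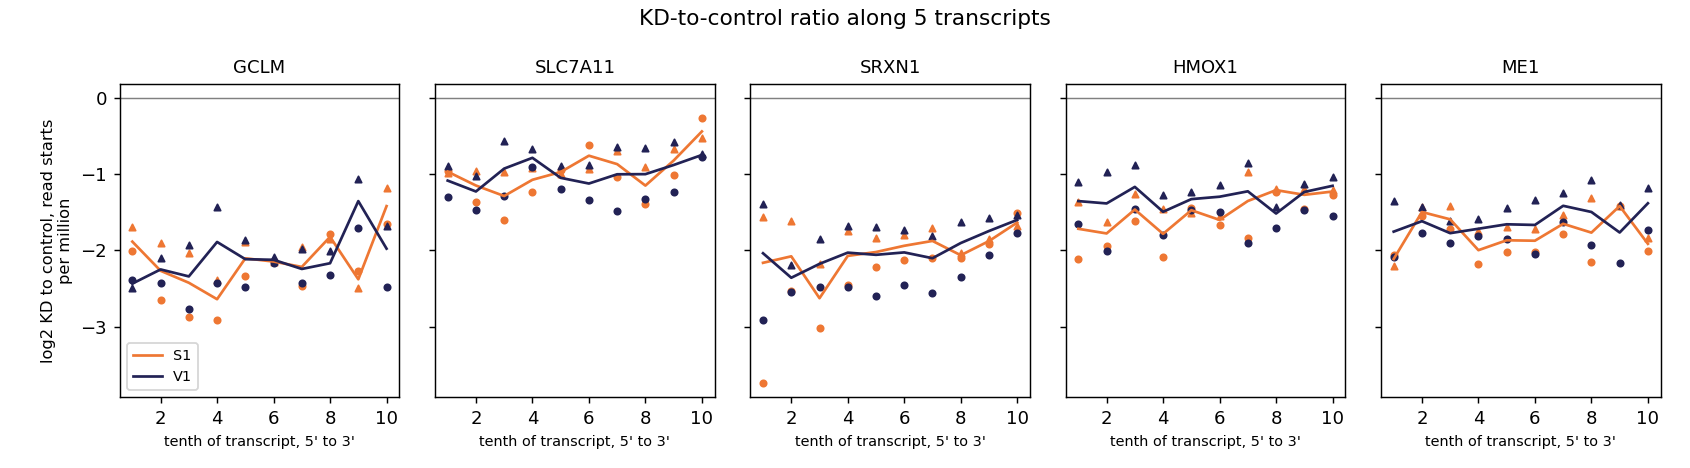
Log2 ratio of KD to control in scaled read starts along 5 transcripts in 10 equal segments from the 5′ to the 3′ end, with lines for the ratio of the means, circles for replicate 1 and triangles for replicate 2. The lines of S1 (orange) and V1 (dark blue) stay below 0 in all 10 segments of the 5 transcripts.

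The ratio of V1 to S1 read starts is higher where more cuts fall at paired bases, and of the 5 members SRXN1 had the highest ratio in each replicate of each condition. SRXN1 had log2 ratios of 0.83 and 0.58 above the median of all transcripts in control and 0.61 and 0.59 in KD. GCLM lay at -0.09 and -0.13 in control and at -0.09 and -0.16 in KD. HMOX1 lay at 0.06 and 0.31 in control and at 0.16 and 0.43 in KD. SLC7A11 lay at 0.06 and -0.07 in control and at -0.21 and -0.27 in KD. ME1 lay at -0.09 and -0.12 in control and at -0.03 and -0.03 in KD. The 2 conditions did not overlap in SLC7A11, which was lower in KD, nor in ME1, which was higher. Of all 4715 transcripts, 17.9% did not overlap and were lower and 16.4% were higher, so that 1 of 5 members each way is near the share of all transcripts. For 1 transcript, 0.333 is the smallest two-sided p that exact permutation allows for 2 against 2 libraries.

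The promoters of the members were searched for the core of the antioxidant response element, TGACNNNGC, on both strands (N is any base), since 6 of the members were lower together in PARS-seq. The table of RefSeq promoters (GRCh38.p14) held windows from 250 bases before to 50 after the start for 7 of the 9 members, with 9 starts in all, and no entry for HMOX1 and SLC7A11. GCLM, ME1 and TXNRD1 held the letters, in 4 of 9 windows, and 13.3% of all 35116 windows of the same length did. Of these members, GCLM and ME1 were called lower in PARS-seq and TXNRD1 was not. The windows of NFE2L2, GCLC, NQO1 and SRXN1 did not hold the letters, which says nothing of bases further away. GCLC, NQO1 and SRXN1 were among the members called lower. The 6 matches are printed 5′ to 3′ on the strand of the gene, with the letters in capitals and with 12 bases on each side. Their positions come from an exact match of each stretch to GRCh37, where each occurred once. A match is a description of the letters and not a site of binding.
GCLM, minus strand, chr1:94375000-94375032: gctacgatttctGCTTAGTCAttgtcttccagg
ME1, minus strand, chr6:84140887-84140919: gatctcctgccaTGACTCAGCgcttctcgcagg
ME1, minus strand, chr6:84140739-84140771: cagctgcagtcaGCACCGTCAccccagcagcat
TXNRD1, plus strand, chr12:104609446-104609478: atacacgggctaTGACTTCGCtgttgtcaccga
TXNRD1, plus strand, chr12:104609537-104609569: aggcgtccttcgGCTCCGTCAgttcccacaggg
TXNRD1, plus strand, chr12:104680696-104680728: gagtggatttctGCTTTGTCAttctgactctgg
In GCLM the letters stood on the opposite strand, from 34 bases before the start in the RefSeq table, which is not the gene end in the GENCODE positions given above.

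Other genes of the pathway were taken from lists of 75 genes, of which 69 were tested in PARS-seq. Of these, 32 were called lower and 0 higher, beside 7.43% and 8.06% of all genes tested. The lists were chosen with earlier results of these data known, so these counts describe them and are no independent test. The count called higher was 1 without control replicate 1, 2 without control replicate 2 and 1 without KD replicate 2. Without the filter on low values 13 of 74 were called lower, beside 1.71% of all genes. Of the 22 tested detoxifying enzymes and export pumps, 18 were called lower, with a median log2 difference of -1.59, and 9 of 23 without that filter. AKR1C1, an aldo-keto reductase, had 97.9 and 77.2 RPKM in control and 2.61 and 3.66 RPKM in KD. On RPKM + 1 it had the largest PARS-seq difference among the genes on the lists, -4.42, but with 0.1 added in place of 1 AKR1B10 had -4.81 and AKR1C1 -4.77. The log2 difference of AKR1C1 was -2.33 in RNA-seq and -2.24 and -1.14 in the Ribo-seq replicates. The median of the detoxifying enzymes and export pumps was -1.11 in RNA-seq and -0.66 and -0.07 in the Ribo-seq replicates, where CBR3 had 0.05 and 1.08. AKR1C1 to AKR1C3 are close in sequence, and how reads were shared between them is uncertain. ALDH3A1, an aldehyde dehydrogenase, had a PARS-seq log2 difference of -3.28 and an RNA-seq one of -2.16.

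The other lists had smaller shares called, to be read beside the 7.43% of all genes called lower, which the regulators at 1 of 11 are near. Of 12 other glutathione genes, 6 were called lower, with a median of -0.68, led by MGST1 at -2.003 and GLRX at -1.53. Of 11 other thioredoxin and peroxiredoxin genes, 3 were called lower, with a median of -0.23, namely PRDX1 (-1.40), SESN1 (-1.04) and TXN (-0.97). Of 6 NADPH-producing enzymes, PGD (-1.46) and TALDO1 (-1.03) of the pentose phosphate pathway were called lower, with a median of -0.66 for the list, and the call of TALDO1 was lost without KD replicate 1 (-0.82). Of 7 heme and iron genes, FTL, a ferritin chain, and the porphyrin transporter ABCB6 were called lower, at -1.67 and -0.99, with a median of -0.52 for the list. Of 11 regulators of NRF2, SQSTM1, whose protein binds KEAP1, was called lower (-1.42), and MAFF had the largest difference of the others, 0.46, without passing the test (adjusted p = 0.0679). MAFF passed without PARS-seq control replicate 2 (0.55). The median of the regulators was -0.09, beside 0.04 for all genes. Among the other genes in these counts, GGT1, GSR, MGST2, CBR1 and PIR each lost the call without at least 1 PARS-seq column, at log2 differences from -0.79 to -0.46. Leaving out 1 PARS-seq column at a time gave 4 to 9 of 12 glutathione genes called lower, 3 to 4 of 11 thioredoxin genes, 1 to 4 of 6 NADPH enzymes and 2 to 4 of 7 heme and iron genes. The largest count of each of these lists came without control replicate 2, where regulators were also called higher. Of these fits, that one also called the most genes lower among all genes tested. Median centring gave 4 of 6 NADPH enzymes and 4 of 11 thioredoxin genes called lower, and a mean of at least 5 RPKM gave 3 of 6 NADPH enzymes. Without the filter on low values the counts called lower were 1 of 15 glutathione genes, 1 of 11 thioredoxin genes, 1 of 6 NADPH enzymes, 1 of 8 heme and iron genes and 0 of 11 regulators. GLRX, PRDX1, TXN, TALDO1, FTL and SQSTM1 were among those not called then, at the same log2 differences. The Ribo-seq replicate 1 medians were -0.24 for the glutathione genes, -0.35 for thioredoxin, -0.31 for NADPH, -0.58 for heme and iron and -0.18 for the regulators. In that order they were 0.49, 0.34, 0.23, 0.29 and -0.21 in replicate 2, where that of all genes was 0.16. In RNA-seq they were -0.23, -0.27, -0.42, -0.39 and -0.08.

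The 5 genes whose log2 differences lay closest to the members' median over the 5 same-numbered comparisons were AHCYL1, the joined row of CHMP1B and GNAL, ID3, BRP44 and CD164. They were chosen by these differences, PARS-seq included, so their PARS-seq calls describe the choice and are no separate result. CD164 was not called lower in PARS-seq without KD replicate 2 (-0.77), and the call of the others held in each fit without 1 column. Without the filter on low values 0 of the 5 were called. Their Euclidean distances ran from 0.186 for AHCYL1 to 0.294 for CD164, among 3572 genes with a mean of at least 10 RPKM in each assay. AHCYL1 had 133 and 111 RPKM in control and 61.5 and 48.0 RPKM in KD in PARS-seq. Its log2 differences were -0.63 and -0.04 in the Ribo-seq replicates and -0.44 in RNA-seq, where the members' medians were -0.69, 0.13 and -0.46.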

How the data were processed

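The members and the gene lists were chosen with earlier results of these data known. Per the labels and the methods, the authors aligned reads with Bowtie2 to hg19 after adapter trimming with cutadapt and deposited RPKM values per gene symbol, joining overlapping genes in 1 row. The PARS-seq columns hold their means over the S1 and V1 libraries of a replicate. The authors also deposited read starts per base of each UCSC transcript, other values than a count per gene, which were summed per transcript here. The RPKM table holds no read numbers.

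Genes with a mean of at least 1 RPKM over an assay's columns were compared as log2(RPKM + 1), which understates the change of low genes, with limma 3.58.1 (R 4.3.3) with a mean trend, two-sided, and Benjamini-Hochberg adjustment over all genes tested, called under 0.05. For read starts, limma was fitted on log2 read starts scaled to 1000000 with 0.5 added, for transcripts listed in all 4 libraries of a nuclease with a mean of at least 10. UCSC identifiers were paired with symbols from a supplementary table of the study. RNA-seq had no test. Python 3.11.15, pandas 2.3.3, numpy 2.4.6 and matplotlib 3.10.9 were used, with GENCODE lifted to GRCh37 for gene positions. Named genes were all members, ADAR, genes of each other list called in PARS-seq or the 2 with the largest change where fewer than 2 were called, and the 5 genes nearest to the members' median. Alternatives covered pseudocounts, filters, scaling, the replicate block and leaving out each replicate.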

Additional observations from a re-analysis of the deposited data

Results flagged for a closer look

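Among the 4 PARS-seq control libraries, S1 control replicate 1 lists 4722 transcripts, and its gap to the nearest of the other 3 takes up 0.963 of the whole range of the 4. That gap is above Dixon's critical value for 4 libraries. Of 16 such comparisons over the control and the KD libraries, 1 passed, and chance passes about 1 in 20.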

How the results depend on the processing

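Without the filter on low values, 325 genes were called lower and 221 higher in PARS-seq, with 3 members, and a mean of at least 5 RPKM gave 526 higher. Leaving out a column, where the lone sample left is assumed to vary like the others, gave 570 to 1252 lower, 584 to 1319 higher and -0.0859 to 0.0565 for TXNRD1 on the log2 scale. In Ribo-seq this range was -0.60 to 0.90 for NFE2L2, -0.86 to 0.32 for NQO1, -0.39 to 0.39 for TXNRD1 and -0.67 to 0.35 for ME1, so the direction of these 4 members changed with the column left out. In RNA-seq, 773 genes were lower with a pseudocount of 0.1, 335 lower and 297 higher with a mean of at least 5 RPKM, and 100 lower and 89 higher at 2-fold, with 2 members.

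In S1, 438 transcripts were called lower and 306 higher with TMM, and 455 and 308 with totals that leave out the most covered transcript. In V1, 679 and 905 were called higher with these. Leaving out a library gave 231 to 1722 lower, 8 to 111 higher and 3 to 5 members in S1, and 429 to 1443 lower and 120 to 347 higher in V1. The cause was not tested.

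With the replicate block, which pairs libraries of the same number, 2527 genes were called lower and 3129 higher in PARS-seq, with 8 members called lower, NFE2L2 and SLC7A11 among them, and 58 lower and 85 higher in Ribo-seq, with 0 members. ADAR then passed in Ribo-seq (log2 difference -1.26), and of the 69 genes on the pathway lists 46 were called lower and 5 higher in PARS-seq. MAFF (0.46) was among those called higher with the block. Deviations from the condition mean correlated over genes between same-numbered libraries with 0.658 in PARS-seq, 0.811 in Ribo-seq, 0.467 in S1 and 0.378 in V1. Genes are not independent replicates, there are 2 pairs, and the labels do not say that equal numbers mean a pair.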
